A study of Mus musculus with 9 samples.

Results

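The genes described here are 10 genes of lactogen signalling and serotonin synthesis in mouse pancreatic islets, taken by symbol from a table of 24420 genes. They are Prlr, the receptor for prolactin and placental lactogen, the transcription factors Stat5a and Stat5b, the feedback inhibitors Cish and Socs2, the lactogen-responsive genes Igfals, Neb and Ivd, and the tryptophan hydroxylases Tph1 and Tph2. All 10 were found in both deposited tables, of read counts and of FPKM (fragment counts scaled by gene length and library size). RNA was sequenced from islets of female mice that had been cultured overnight. The 5 wild-type (WT) libraries carried floxed Ogt and no Cre, with the genotype Ogt f/+ in WT replicates 1 and 3 and Ogt f/f in the other 3. The 4 knockout (KO) libraries had the genotype Rip-cre; Ogt f/f, in which an insulin promoter drives Cre, so that Ogt, the enzyme that attaches O-linked N-acetylglucosamine to proteins, is deleted in beta cells. Run 1 held 3 WT and 2 KO libraries, and a later pool, labelled run 3 and 2nd run, held 2 WT and 2 KO libraries. The KO mice carry Cre and the WT mice do not, so effects of the transgene and of the deletion cannot be told apart. Some insulin-promoter Cre transgenes contain a human growth hormone minigene, whose product can activate the prolactin receptor, and the labels do not say which Rip-cre line was used.

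In pregnancy, placental lactogens and prolactin bind the prolactin receptor on beta cells, the kinase Jak2 phosphorylates STAT5, and STAT5 enters the nucleus and raises its target genes. Cish and Socs2 are among these targets and dampen the same pathway. Tph1 is induced strongly in islets of pregnant mice, and the serotonin made from tryptophan by Tph1 or Tph2 and then by the decarboxylase Ddc acts on beta cell growth and secretion.

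The libraries of run 1 held 3796043 to 4462754 counts each and those of run 3 held 5150443 to 6073537, and the ribosomal RNA precursor took 9.62% to 28.5% of them. Ogt, the targeted gene, stood at 54.1 to 83.0 CPM (counts scaled to a common library size) in WT and at 23.7 to 39.3 CPM in KO libraries, a log2 fold change of −1.30 ± 0.14 (SE, 5 WT and 4 KO libraries, adjusted p = 2.44e-05 in edgeR's quasi-likelihood test). Whether each library is a separate animal is not in the labels, so p-values reflect only how far libraries of a group differ, a spread that may be technical. Of 12 tested beta cell markers 7 fell, or 58.3% beside 8.96% of all tested genes. The summed beta marker level was 65075 to 111294 CPM in WT and 56416 to 83706 CPM in KO libraries of run 1, which overlapped. In run 3 it was 48669 to 55213 CPM in WT and 43250 to 47026 CPM in KO libraries, which did not overlap. In bulk islets fewer cells of a type and less RNA per cell cannot be told apart. Acinar markers, from exocrine tissue, summed to 2757 to 6956 CPM in WT and 522 to 2376 CPM in KO libraries of run 1, and to 172 to 182 CPM in WT and 120 to 301 CPM in KO libraries of run 3. With the acinar level as a covariate the log2 fold changes were −0.61 for Prlr, −0.89 for Igfals and 0.80 for Neb, which was then not called. Without WT replicate 2 and KO replicate 2, the highest and lowest acinar levels of run 1, they were −0.67, −0.88 and 0.77, and all 3 were called.

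Levels between genes were compared per length, on the FPKM scale. Over the 9 libraries Ivd had the highest mean FPKM, 24.3, followed by Prlr at 20.9 and Stat5b at 17.3, with library ranges of 20.1 to 29.6, 13.1 to 28.5 and 14.4 to 19.2. Neighbours in this order overlap, whereas each Ivd value lay above each Stat5b value. Igfals followed at 11.3 (6.34 to 16.9), Socs2 at 7.90 (4.48 to 14.3), Cish at 4.73 (3.11 to 5.97) and Stat5a at 4.09 (3.02 to 4.94), and these neighbours also overlap. Neb at 0.198, Tph1 at 0.150 and Tph2 at 0.0748 lay far below the rest, and their ranges overlap one another. Prlr stood above 86.9% of the 21073 genes with any FPKM, and Tph2 above 12.2%.

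Of the 10 genes, 8 passed the filter on low counts and were tested, and 3 were called, that is, had a p under 0.05 after Benjamini-Hochberg adjustment. Prlr and Igfals fell in KO islets and Neb rose, while Stat5a, Stat5b, Cish, Socs2 and Ivd were not called. The background over all 12501 tested genes was 18.5% called, 9.56% higher and 8.96% lower. Within run 1 alone 1 of the 8 was called, Igfals, beside 6.05% of all genes (3.13% higher, 2.92% lower), and within run 3 alone 2, Prlr and Igfals, both lower, beside 8.17% (3.93% higher, 4.24% lower). Between runs 4 of the 8 were called, with Neb and Socs2 higher and Prlr and Igfals lower in run 3, beside 31.4% of all genes. The median log2 fold change of the 8 was −0.05, beside 0.02 over all tested genes. For 4 of the 8 the KO and WT libraries did not overlap in either run and lay in the same order in both, with Prlr and Igfals lower and Neb and Stat5a higher, beside 22.9% of all tested genes. The plot of CPM by library shows these values.

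**Figure D1:**
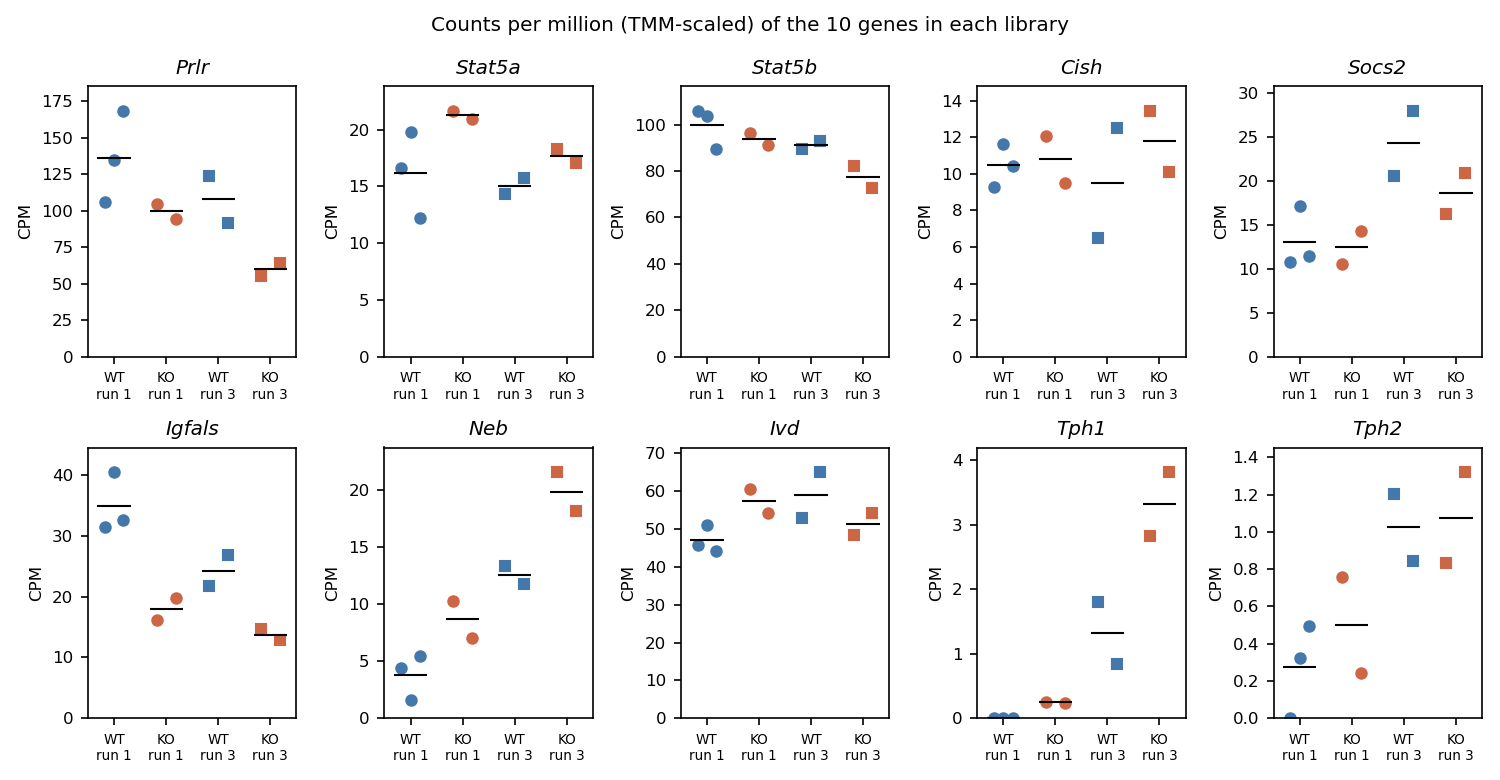
CPM, scaled by TMM, of the 10 genes in each library, by genotype and run; each point is 1 library, black lines are means and each axis starts at 0. Prlr and Igfals are lower in KO than in WT libraries within both runs, Neb and Stat5a are higher, and Tph1 and Tph2 lie under 4 CPM.

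Prlr (chromosome 15, 10177238 to 10349180, plus strand, GRCm38, the build mm10) encodes the receptor through which lactogens act. It stood at 106, 135 and 169 CPM in WT and at 105 and 94.7 CPM in KO libraries of run 1, and at 124 and 91.9 CPM in WT and 55.5 and 64.4 CPM in KO libraries of run 3. Within run 1 the lowest WT library was barely above the highest KO library, and within run 3 the groups were well apart. Prlr averaged 125 CPM ± 29.4 (SD, n = 5) over WT and 79.8 CPM ± 23.5 (SD, n = 4) over KO libraries, and edgeR's test gave −0.63 ± 0.13 (SE, log2) at an adjusted p of 0.00396. The difference was −0.47 (95% interval −0.86 to −0.08) within run 1, where it was not called (adjusted p = 0.141), and −0.85 (−1.15 to −0.56) within run 3 (adjusted p = 0.00117). These differed by −0.39 (−0.94 to 0.15), and the interaction of genotype and run was not called (adjusted p = 0.879). The call was also lost without the run term (−0.65, adjusted p = 0.115) and was kept without each single library (−0.73 to −0.51). On deposited FPKM, limma gave −0.55 (adjusted p = 0.00703) on the log2(FPKM + 0.1) scale. Prlr was also lower in run 3 than in run 1, by a log2 difference of −0.51 (adjusted p = 0.00827).

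Promoters of the genes were searched for TTCNNNGAA, the motif that STAT5 binds, which reads the same on both strands. RefSeq promoters (GRCm38.p6, 250 bases before to 50 after a start) matched 8 of the 10 genes with 15 promoters, and none was found for Neb and Socs2. The motif was in 5 of the 15 promoters and in 4 of the 8 genes, beside 8.30% of all 32851 promoters and 8.38% of tested genes. These genes were chosen partly for their known link to STAT5, so the share is a description, and a match is not evidence of binding. Shown are the promoter of Cish, the only one of the 15 with 2 matches (0.457% of all promoters hold 2 or more), and one promoter each of the genes that fell, Prlr and Igfals, in lower case with the matches in capitals.
Cish, chr9:107296409-107296708, plus strand: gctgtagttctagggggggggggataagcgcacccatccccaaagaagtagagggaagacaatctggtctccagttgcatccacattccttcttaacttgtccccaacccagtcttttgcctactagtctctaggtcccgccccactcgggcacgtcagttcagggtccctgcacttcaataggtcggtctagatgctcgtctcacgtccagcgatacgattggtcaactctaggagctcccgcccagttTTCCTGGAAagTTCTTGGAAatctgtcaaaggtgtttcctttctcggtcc
Prlr, one of 3 starts, chr15:10223656-10223955, plus strand: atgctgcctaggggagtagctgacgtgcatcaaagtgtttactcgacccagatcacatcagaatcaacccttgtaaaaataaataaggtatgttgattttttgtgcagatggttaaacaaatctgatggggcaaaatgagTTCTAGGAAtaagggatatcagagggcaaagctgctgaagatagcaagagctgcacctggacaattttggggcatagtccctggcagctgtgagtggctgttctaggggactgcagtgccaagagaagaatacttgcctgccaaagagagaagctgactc
Igfals, one of 3 starts, chr17:24877981-24878280, plus strand: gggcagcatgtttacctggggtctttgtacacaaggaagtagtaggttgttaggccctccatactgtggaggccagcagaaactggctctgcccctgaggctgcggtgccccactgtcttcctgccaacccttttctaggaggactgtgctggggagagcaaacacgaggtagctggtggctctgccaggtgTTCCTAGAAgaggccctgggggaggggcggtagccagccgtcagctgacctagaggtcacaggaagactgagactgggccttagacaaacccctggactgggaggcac
In Cish the matches TTCCTGGAA and TTCTTGGAA begin at bases 1 and 12 from the RefSeq start, 11 bases apart. In Prlr the match begins at −110 and in Igfals at −58 from the start, and the other Prlr starts hold none. A second Igfals start (chr17:24877594-24877893) holds TTCTCAGAA at −236, and the third holds none. Ivd held 1 match at −88, and no match was in the windows of Tph1, Tph2, Stat5a and Stat5b, which says only that these letters are not there.

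Stat5a and Stat5b are the transcription factors that carry the signal, encoded by neighbouring genes on chromosome 11 (Stat5a 100859351 to 100885169, plus strand; Stat5b 100780731 to 100850724, minus strand). Stat5a stood at 16.6, 19.8 and 12.2 CPM in WT and 21.7 and 20.9 CPM in KO libraries of run 1, and at 14.3 and 15.7 CPM in WT and 18.3 and 17.02 CPM in KO libraries of run 3. Its KO libraries were the higher ones in both runs, but the log2 fold change of 0.32 (95% interval −0.01 to 0.65) was not called (adjusted p = 0.163, edgeR). Stat5b stood at 106, 104 and 89.5 CPM in WT and 96.5 and 91.3 CPM in KO libraries of run 1, and at 89.4 and 92.8 CPM in WT and 82.1 and 72.5 CPM in KO libraries of run 3. The groups overlapped in run 1 and did not in run 3, and the log2 fold change of −0.16 (−0.34 to 0.02) was not called (adjusted p = 0.212, edgeR). Stat5b exceeded Stat5a on the FPKM scale in every library, by 4.07 to 5.79 times in WT and by 3.33 to 4.16 times in KO libraries. The ratio was lower in each KO library than in each WT library of the same run, a difference that was not tested. Of the 50-base windows of their coding transcripts, 14.7% of those of Stat5a and 11.1% of those of Stat5b occur in the other gene, so reads from these stretches could be split between them. For Stat5a a further 1.01% of the exonic bases of Stat5a lie opposite exons of Stat3.

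Cish and Socs2, which limit cytokine receptor signalling, were not called. Cish (chromosome 9, 107296026 to 107302784, plus strand) stood at 9.28, 11.7 and 10.4 CPM in WT and 12.1 and 9.49 CPM in KO libraries of run 1, and at 6.48 and 12.5 CPM in WT and 13.5 and 10.1 CPM in KO libraries of run 3. The groups overlapped in both runs. Its log2 fold change was 0.18 (95% interval −0.29 to 0.66, adjusted p = 0.616, edgeR), and without WT replicate 4, the lowest library, it was −0.0053. Annotated antisense RNA Gm17041 covers 7.46% of the exonic bases of Cish. Socs2 (chromosome 10, 95385362 to 95417180, minus strand) stood at 10.7, 17.2 and 11.4 CPM in WT and 10.6 and 14.4 CPM in KO libraries of run 1, and at 20.6 and 28.0 CPM in WT and 16.3 and 21.0 CPM in KO libraries of run 3. Its groups overlapped in both runs, and its log2 fold change was −0.23 (−0.62 to 0.17, adjusted p = 0.432, edgeR). The log2 difference of run 3 from run 1 was 0.76 for Socs2 (adjusted p = 0.00498), and without both WT replicates 2 and 5 the genotype difference was 0.0026.

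Igfals (chromosome 17, 24865997 to 24882010, plus strand) encodes the acid-labile subunit, which holds insulin-like growth factors in a ternary complex in the circulation and is a growth hormone target in liver. It stood at 31.5, 40.5 and 32.6 CPM in WT and 16.1 and 19.7 CPM in KO libraries of run 1, and at 21.7 and 26.9 CPM in WT and 14.6 and 12.9 CPM in KO libraries of run 3. Each KO library lay below each WT library of both runs. Igfals averaged 30.6 CPM ± 6.996 (SD, n = 5) over WT and 15.8 CPM ± 2.90 (SD, n = 4) over KO libraries, and edgeR's test gave −0.89 ± 0.14 (SE, log2) at an adjusted p of 0.00047. Run 1 alone gave −0.97 (adjusted p = 0.0177) and run 3 alone −0.82 (adjusted p = 0.0307). Igfals was called under each of the 26 alternative settings, left-out libraries included, at −0.97 to −0.78.

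Ivd (chromosome 2, 118861954 to 118882909, plus strand) encodes isovaleryl-CoA dehydrogenase, a mitochondrial enzyme of leucine breakdown. It stood at 45.9, 51.2 and 44.3 CPM in WT and 60.5 and 54.3 CPM in KO libraries of run 1, and at 53.0 and 65.0 CPM in WT and 48.5 and 54.3 CPM in KO libraries of run 3. KO libraries were the higher ones in run 1, and in run 3 the groups overlapped with the KO mean the lower. The log2 fold change was 0.27 (95% interval −0.03 to 0.57) within run 1 and −0.20 (−0.50 to 0.10) within run 3, and over both runs 0.05 (−0.19 to 0.30, adjusted p = 0.789, edgeR). The interaction of genotype and run was not called for Ivd (adjusted p = 0.801). Without KO replicate 1 the difference over both runs was −0.036.

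**Figure D2:**
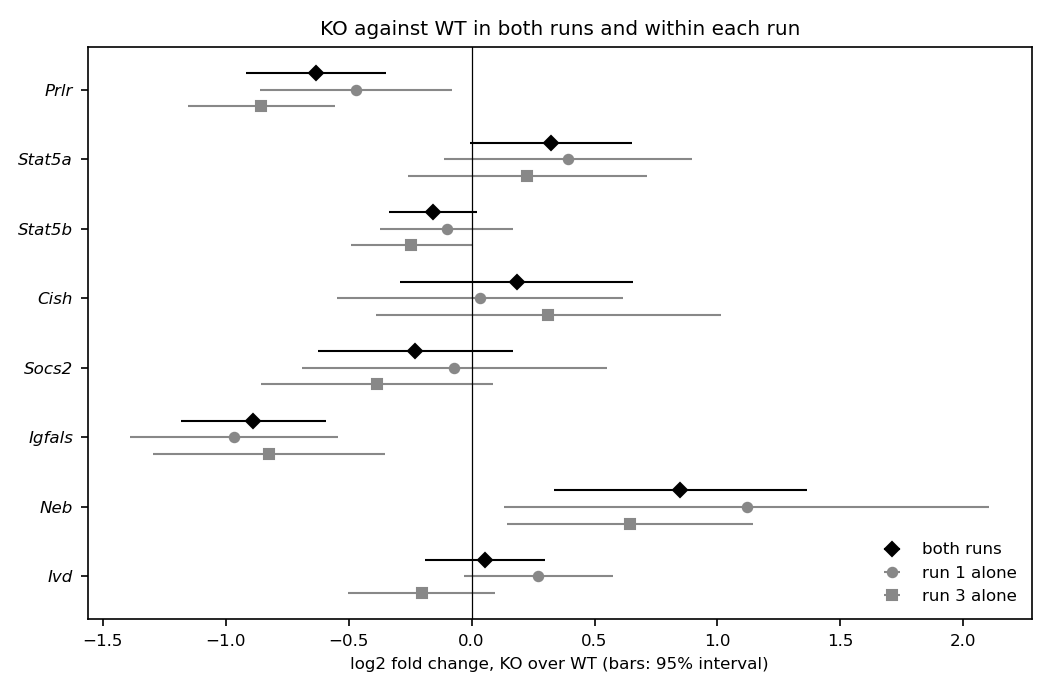
Log2 fold change of KO over WT with its 95% interval for the 8 tested genes, from edgeR fits of both runs, run 1 alone and run 3 alone. The intervals of Prlr and Igfals lie below 0 in all 3 fits, those of Neb lie above 0, and Ivd has its estimates on opposite sides of 0 in the runs.

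Of the 8 tested genes, 0 were called for an interaction of genotype and run in edgeR's test and 0 in DESeq2, with 1 (Ivd) and 0 at an unadjusted p under 0.05. Over all genes edgeR called 0 and DESeq2 called 1 for the interaction. Between f/+ and f/f controls 0 of the 8 were called by edgeR, 0 had an unadjusted p under 0.05, and 0 of all genes were called. The comparison of controls rests on 2 f/+ libraries, both of run 1, where WT replicate 2 was the only f/f control. The lack of calls therefore does not show that the controls are alike.

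Neb (chromosome 2, 52136647 to 52378474, minus strand) encodes nebulin, a giant protein of the thin filaments of skeletal muscle, with 166 exon blocks and 26582 exonic bases. It had 18, 5 and 22 counts in WT and 41 and 29 in KO libraries of run 1, and 89 and 70 counts in WT and 130 and 124 in KO libraries of run 3. As CPM this was 4.40, 1.62 and 5.47 in WT and 10.3 and 7.06 in KO libraries of run 1, and 13.4 and 11.8 in WT and 21.6 and 18.2 in KO libraries of run 3. KO libraries were the higher ones in both runs, and run 3 was higher than run 1 with a log2 difference of 1.42 (adjusted p = 0.000349). For KO over WT edgeR's test gave 0.85 ± 0.24 (SE, log2) at an adjusted p of 0.0233. The call was lost in run 1 alone (1.12, adjusted p = 0.162), in run 3 alone (0.65, adjusted p = 0.108) and without the run term (0.92, adjusted p = 0.318). It was also lost without KO replicate 1 (0.70), WT replicate 5 (0.84) or KO replicate 3 (0.85), with the acinar covariate (0.80) and without both WT replicates 2 and 5 (0.67).

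The deposited FPKM of Neb did not follow its counts in run 3. Neb FPKM was 0.168, 0.0524 and 0.161 in WT and 0.382 and 0.215 in KO libraries of run 1, but 0.235 and 0.184 in WT and 0.211 and 0.171 in KO libraries of run 3. On that scale KO was above WT in run 1 and the groups overlapped in run 3, and limma gave 0.41 on the log2(FPKM + 0.1) scale (adjusted p = 0.561, no filter). FPKM per CPM of Neb was 0.0295 to 0.0382 in run 1, 0.0155 and 0.0176 in WT libraries of run 3 and 0.00939 and 0.00977 in KO libraries of run 3. The mean of this quotient in run 3 was 0.39 of that in run 1, lower than in all but 0.199% of 12085 genes with values in every library, where the median was 1.06 and 90% of genes lay between 0.762 and 1.24. Among the other 7 tested genes it lay between 1.00 (Stat5a) and 1.201 (Socs2). The rise of Neb is therefore one of deposited counts that the FPKM table shows in run 1 and not in run 3. Of 10 skeletal muscle markers 2 passed the filter and 0 were called by edgeR, and they summed to 1.95 to 5.18 CPM in WT and 3.65 and 4.28 CPM in KO libraries of run 1 and to 14.0 and 14.2 CPM in WT and 17.9 and 19.8 CPM in KO libraries of run 3. Of the 10 markers, 7 (Ckm, Tnnt3, Tnni2, Myh1, Myh2, Myh4 and Pvalb) were at 0 in all 5 libraries of run 1. In run 3 Myh4, a myosin heavy chain, stood at 3.31 and 2.53 CPM in WT and 4.65 and 4.70 CPM in KO libraries, and Acta1, skeletal actin, stood at 1.95 to 3.24 CPM in run 1 and at 1.66 to 3.38 CPM in run 3. The part of muscle RNA in the values of Neb was not tested.

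**Figure D3:**
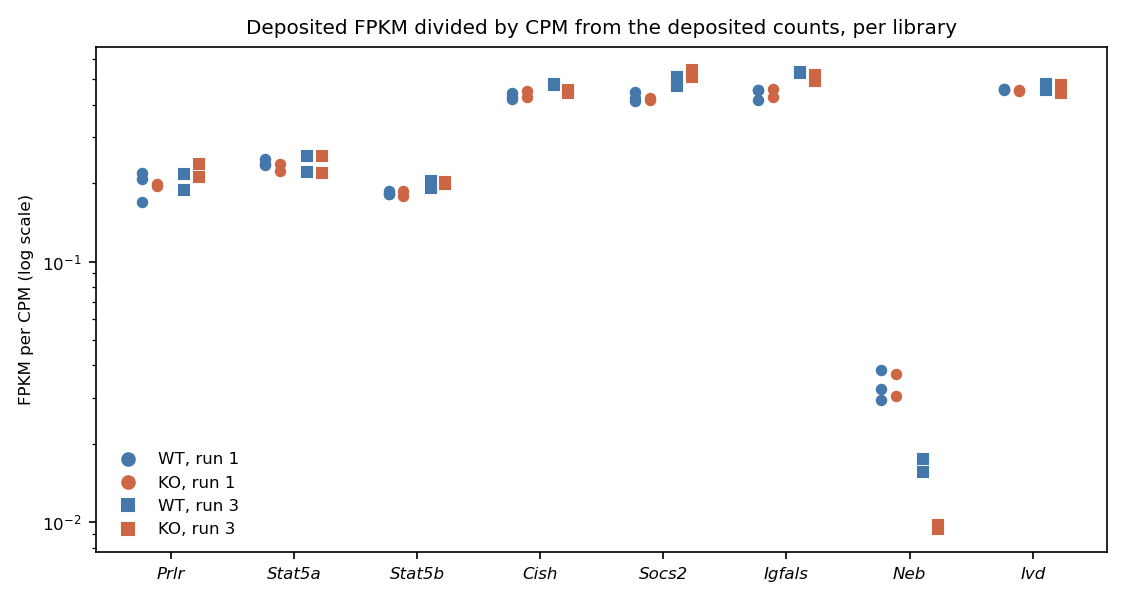
Deposited FPKM divided by CPM from the deposited counts, on a log axis, for the 8 tested genes; each point is 1 library, circles run 1 and squares run 3. Neb drops from 0.0295 to 0.0382 in run 1 to 0.00939 to 0.0176 in run 3, with the KO libraries of run 3 lowest, while the other genes stay close to their run 1 values.

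Tph1 (chromosome 7, 46644641 to 46672537, minus strand), the rate-limiting enzyme of serotonin synthesis outside the brain, did not pass the filter on low counts. It had 0 counts in each of the 3 WT libraries and 1 count in each of the 2 KO libraries of run 1, and 12 and 5 counts in WT and 17 and 26 in KO libraries of run 3. A count of 0 allows up to 3 counts, or 0.733 to 0.972 CPM in those WT libraries, by counting error only, so no difference was detectable in run 1. In run 3 this was 1.81 and 0.845 CPM in WT and 2.82 and 3.82 CPM in KO libraries, which did not overlap. Without the filter edgeR gave an adjusted p of 0.228 among 22987 genes, and limma on unfiltered FPKM gave 0.316, so Tph1 was not called. Mast cells also express Tph1, and 6 of their 8 markers (Cpa3, Mcpt4, Tpsb2, Cma1, Ms4a2 and Fcer1a) were at 0 in all libraries of run 1 and reached at most 8 counts in run 3. The summed list, carried mainly by Kit, which rose (25.4 to 48.5 CPM, log2 fold change 0.93, adjusted p = 0.000474, edgeR), was 21.0 to 32.6 CPM in WT and 42.7 to 65.0 CPM in KO libraries. The 2 tested markers, Kit and Hdc, had a median log2 fold change of 0.95 (1.11 in run 1 alone and 0.76 in run 3 alone), and Hdc was not called. The part of mast cells in the counts of Tph1 was not tested.

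Tph2 (chromosome 10, 115078641 to 115185022, minus strand), the tryptophan hydroxylase of neurons, had 0, 1 and 2 counts in WT and 3 and 1 in KO libraries of run 1, and 8 and 5 counts in WT and 5 and 9 in KO libraries of run 3. The groups overlapped in both runs, and edgeR without the filter gave an adjusted p of 0.90. Its FPKM was listed at 0 in WT replicate 5 and KO replicate 4 of run 3, which had 5 and 9 counts. The coding transcripts of Tph1 and Tph2 share 0 windows of 50 bases, so reads of that length would not match both.

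Of 13 genes of serotonin synthesis, storage, transport and breakdown 8 were tested, of which 1 rose, 3 fell and 4 were not called, with a median log2 fold change of −0.24, beside 0.02 over all tested genes. These are 12.5% higher and 37.5% lower, beside 9.56% and 8.96% of all tested genes. Ddc, which converts 5-hydroxytryptophan to serotonin, rose in KO, with 123 CPM ± 16.2 (SD, n = 5) over WT and 180 CPM ± 24.1 (SD, n = 4) over KO libraries (log2 0.52, adjusted p = 0.00159, edgeR). Slc7a5 and Slc3a2, the chains of a transporter that takes up tryptophan and other large amino acids, fell by 0.55 and fell by 0.81 (adjusted p = 0.000736 and 0.000534), without loss of either call when any single library was left out. Maob, a monoamine oxidase, fell from 139 to 112 CPM (−0.30, adjusted p = 0.0484), no longer called without WT replicates 3, 4 or 5 or KO replicates 1, 3 or 4 (−0.32 to −0.24). Over the 26 alternative settings Maob lost its call in 15, among them run 1 alone (−0.19). The vesicular transporters Slc18a1 (0.24) and Slc18a2 (0.33) were not called. Of 8 genes of the hydroxylases' cofactor tetrahydrobiopterin 7 were tested, of which 1 rose and 2 fell, with a median of 0.01. The shares were 14.3% higher and 28.6% lower, beside 9.56% and 8.96% of all tested genes. Qdpr, which regenerates the cofactor, fell in KO, with 74.4 CPM ± 8.39 (SD, n = 5) over WT and 37.5 CPM ± 3.98 (SD, n = 4) over KO libraries (log2 −0.97, adjusted p = 3.19e-05, edgeR). Gch1, its first enzyme, fell by 0.38 (adjusted p = 0.0112), no longer called without KO replicate 2 (−0.30). The call of Gch1 was lost in 6 of the 26 alternative settings, among them the acinar covariate (−0.24) and run 3 alone (−0.17). Spr, the last enzyme of cofactor synthesis, rose by 0.62 (adjusted p = 0.038), no longer called without WT replicates 3, 4 or 5 or KO replicates 1, 3 or 4 (0.47 to 0.63). Over the 26 alternative settings Spr lost its call in 13, among them run 1 alone (0.28). None of the 14 serotonin receptor genes passed the filter, and Htr3a had the highest mean, 1.28 CPM in WT and 2.204 CPM in KO libraries.

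Of 21 tested receptors, kinases and adaptors 5 fell, Prlr included, 0 rose and 16 were not called, that is 23.8% called beside 18.5% of all tested genes, with a median log2 fold change of −0.13. Ghr, the growth hormone receptor, fell in KO, with 256 CPM ± 19.2 (SD, n = 5) over WT and 201 CPM ± 26.4 (SD, n = 4) over KO libraries (log2 −0.35, adjusted p = 0.0168, edgeR), no longer called without KO replicate 1 (−0.31), WT replicate 4 (−0.30) or KO replicate 3 (−0.28). Over the 26 alternative settings Ghr lost its call in 6. Jak1, a cytokine receptor kinase, fell by 0.31, Stat3, a transcription factor of cytokine receptors, fell by 0.47, and Shc1, an adaptor, fell by 0.55 (adjusted p = 0.00885, 0.00168 and 0.00527). The call of Jak1 was lost in run 1 alone (−0.34), in run 3 alone (−0.29) and without the run term (−0.34). That of Shc1 was lost in run 1 alone (−0.63), without the run term (−0.53) and on unfiltered FPKM (−0.54). Stat3 lost its call in run 1 alone (−0.43). Jak2, the kinase that Prlr uses, averaged 72.9 CPM ± 9.76 (SD, n = 5) over WT and 71.0 CPM ± 13.6 (SD, n = 4) over KO libraries and was not called (−0.08, adjusted p = 0.684). Of 18 tested inhibitors 1 rose, 1 fell and 16 were not called, with a median of −0.13. That is 11.1% called, beside 18.5% of all tested genes. Ptpn1, a phosphatase that acts on JAK kinases, rose by 0.41 (adjusted p = 0.0111), no longer called without KO replicate 2 (0.32). Its call was lost in 8 of the 26 alternative settings, among them the acinar covariate (0.38) and either run alone (0.39 and 0.40). Socs5 fell by 0.42 (adjusted p = 0.0409), no longer called without WT replicates 1, 2 or 4 or KO replicates 2, 3 or 4 (−0.45 to −0.31). Over the 26 alternative settings Socs5 lost its call in 16, either run alone included (−0.48 and −0.38).

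Of 17 tested STAT5 targets 5 fell, Prlr and Igfals included, 1 rose and 11 were not called (29.4% lower and 5.88% higher, beside 8.96% and 9.56% of all tested genes), with a median log2 fold change of −0.12. Ccnd2, a cyclin needed for beta cell proliferation, fell by 0.39 (adjusted p = 0.00164), and Bcl2l1, which encodes the survival protein Bcl-xL, fell by 0.40 (adjusted p = 0.0348). Pim3, a serine/threonine kinase, fell by 0.76 (adjusted p = 0.0462). The call of Bcl2l1 was lost without WT replicates 1, 3 or 5 or KO replicates 1, 2 or 3 (−0.40 to −0.35). That of Pim3 was lost without WT replicates 1, 2 or 4 or KO replicates 2, 3 or 4 (−0.79 to −0.52). Over the 26 alternative settings Bcl2l1 lost its call in 13, among them the fit against f/f controls (−0.25). Pim3 lost its call in 16, either run alone included (−0.63 and −0.92). Ccnd2 lost its call without the run term (−0.41) and in run 1 alone (−0.35). Hnf4a, a transcription factor of the HNF network, rose in KO, with 32.7 CPM ± 6.61 (SD, n = 5) over WT and 51.3 CPM ± 0.71 (SD, n = 4) over KO libraries (log2 0.64, adjusted p = 0.00306, edgeR). Of 22 tested genes raised by pregnancy or lactogens 4 rose, 4 fell and 14 were not called (18.2% each way, Prlr, Igfals and Neb included), with a median of 0.07. Aass, an enzyme of lysine breakdown, averaged 0.737 CPM over WT and 6.74 CPM over KO libraries. It was at 0 CPM in the 3 WT libraries of run 1, so the size of its fold change is uncertain. The fitted log2 fold change was 2.94 (adjusted p = 0.00334, edgeR) over both runs, 7.94 in run 1 alone and 1.57 in run 3 alone. The call of Aass was lost in run 3 alone (adjusted p = 0.0567) and without the run term (adjusted p = 0.0571). Ehhadh, a peroxisomal enzyme, fell by 0.72 (adjusted p = 0.0421), beside Prlr, Igfals and Ccnd2 in the same list. It was called in neither run 1 alone (−0.55, adjusted p = 0.344, edgeR) nor run 3 alone (−0.91, adjusted p = 0.127). Its call was not followed with libraries left out or under the other settings. Men1, which encodes menin, a brake on beta cell growth that lactogens lower, rose by 0.40 (adjusted p = 0.0312), no longer called without WT replicates 1, 4 or 5 or KO replicates 3 or 4 (0.30 to 0.38). Run 1 alone gave 0.15 (adjusted p = 0.601, edgeR) and run 3 alone 0.65 (adjusted p = 0.0178). Over the 26 alternative settings Men1 lost its call in 12. The other tested brakes, Cdkn1b (−0.03) and Cdkn2c (−0.71, adjusted p = 0.12), were not called.

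**Figure D4:**
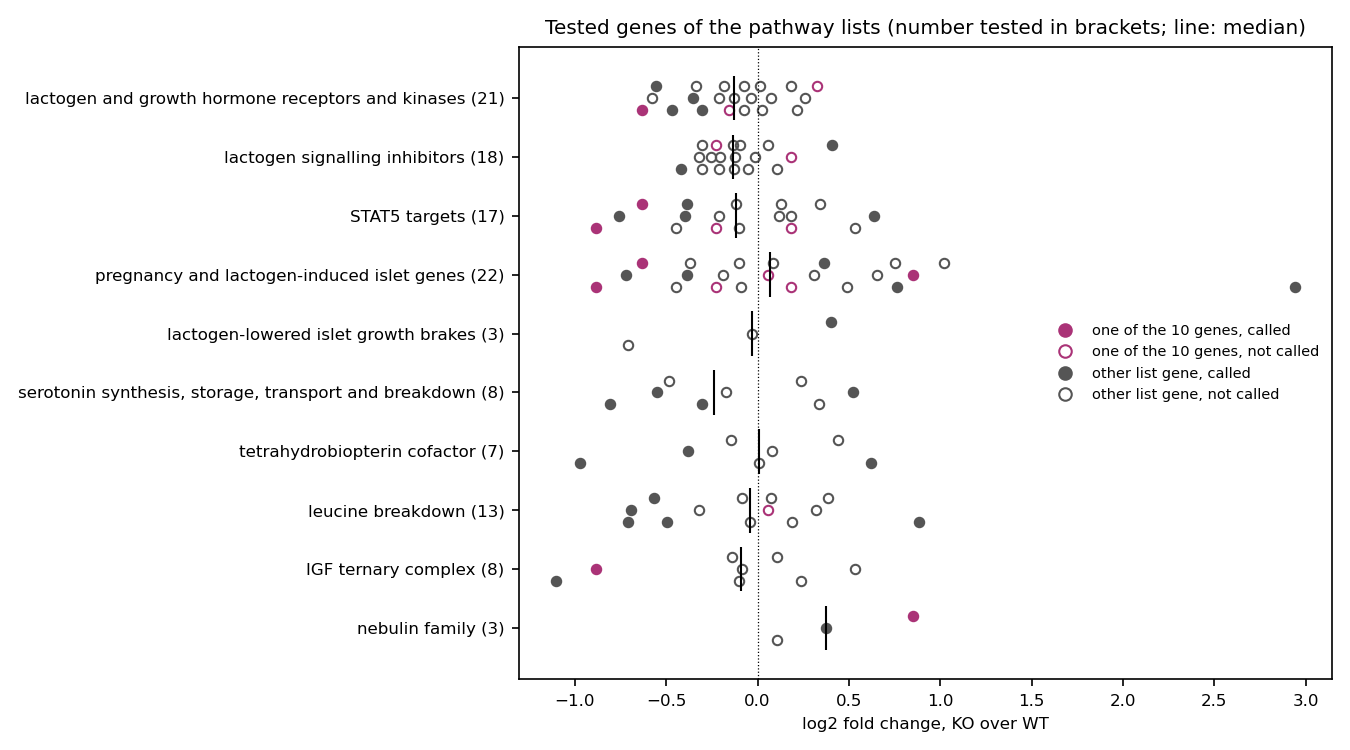
Log2 fold changes of KO over WT for the tested genes of 10 pathway lists; filled points were called at an adjusted p under 0.05, coloured points are among the 10 genes described, and vertical lines are list medians. List medians lie between −0.24 for the list of serotonin synthesis, storage, transport and breakdown and 0.37 for the nebulin family.

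Around the other lactogen-responsive genes, Igf1r, the receptor for insulin-like growth factors, fell in KO, with 795 CPM ± 223 (SD, n = 5) over WT and 353 CPM ± 88.3 (SD, n = 4) over KO libraries (log2 −1.10, adjusted p = 3.94e-06, edgeR). Of 8 tested genes of the insulin-like growth factor complex 2 fell, Igf1r and Igfals, and 0 rose, with a median of −0.09. These are 25% lower, beside 8.96% of all tested genes. Of 13 tested leucine breakdown genes 4 fell, 1 rose and 8, Ivd included, were not called, with a median of −0.04. The shares were 30.8% lower and 7.69% higher, beside 8.96% and 9.56% of all tested genes. Bckdk, which inhibits the branched-chain ketoacid dehydrogenase, fell by 0.71 (adjusted p = 0.00547), and its subunits Dbt and Bckdhb fell by 0.49 and fell by 0.69 (adjusted p = 0.0166 and 0.0285). The call of Bckdk was lost without the run term (−0.84) and in run 3 alone (−0.34). The call of Dbt was lost in 6 of the 26 alternative settings, among them without WT replicate 4 (−0.42) or KO replicate 3 (−0.46). That of Bckdhb was lost without WT replicates 1, 2 or 4 or KO replicates 1, 2 or 3 (−0.72 to −0.54). Over the 26 alternative settings Bckdhb lost its call in 12, among them run 3 alone (−0.32). Bcat2, the mitochondrial transaminase at the entry of the pathway, rose by 0.88 (adjusted p = 0.0112), no longer called on unfiltered FPKM (0.75), without both WT replicates 2 and 5 (0.77), with the acinar covariate (0.78) or in either run alone (0.89 and 0.86). Of 3 tested genes of the nebulin family 2 rose, Neb and Lasp1, or 66.7% beside 9.56% of all tested genes. Lasp1, an actin-binding protein, rose by 0.37 (adjusted p = 0.00371, edgeR). The call of Lasp1 was lost in run 3 alone (0.26) and without the run term (0.35).

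The genes whose pattern was most like that of Prlr over the 9 libraries, by Pearson's r of log2 CPM after the run mean was subtracted, were Dcaf6 (r = 0.99), Vmac (0.96) and Tnpo1 (0.96) among 11954 genes. Most like Cish were Lmo2 (0.94), Prrg2 (0.93) and Lcp1 (0.91). For Tph1 they were Kctd10 (0.98), Swt1 (0.97) and Wrb (0.97), but Tph1 had 0 or 1 counts in each library of run 1. These values rank genes over libraries that share depth and genotype and carry no test.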

How the data were processed

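Islet RNA was extracted with DNase treatment, and libraries came from a low-input kit for total RNA that keeps strand, per the labels' protocols. The authors deposited read counts per gene symbol (24420 genes) and FPKM (24347 genes) for each library. Per the submitters' processing notes, which give no roles, the build was mm10 and the tools included Bowtie2 2.2.4.0, Cuffdiff 2.2.1 and edgeR. The counting tool, its use of strand and its treatment of multiply matching reads are not given in the sources used here. Overlapping and related genes are therefore uncertain.

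In the counts, 27 symbols turned into dates by spreadsheet software were left out. KO and WT were compared by the quasi-likelihood test of edgeR 4.0.16 (R 4.3.3) with TMM scaling, edgeR's default low-count filter per genotype and a model of run and genotype, fitted on all genes with Benjamini-Hochberg adjustment over the 12501 tested. Each standard error was derived from the fold change and the test's F value. CPM uses TMM-scaled library sizes, with a prior count of 2 for log2 CPM. The test was also run on counts simulated from its own fitted model, which cannot show how it handles differences in library quality. Fits within runs kept the same genes. Replicate pairs differed by 3.73 to 64.2 chi-square per degree of freedom, so none was a library deposited again. Alternatives used DESeq2 1.42.0, limma 3.58.1 on voom values or log2(FPKM + 0.1 or 1), with a mean FPKM of at least 0.5 or no filter, other scalings, filters and covariates, and left-out libraries. Gene positions are from GENCODE M21 (GRCm38).

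The 10 genes and all lists were chosen with earlier results of these data known. Named beside them are, from each of 11 pathway lists, up to 4 called genes with the lowest p, or up to 2 tested genes where none was called, and the 3 genes most like Prlr, Tph1 and Cish. Jak2, Ehhadh, Htr3a, the vesicular transporters, the brakes Cdkn1b and Cdkn2c and single markers are named outside that rule, after their values were seen. A few called genes of these lists are left unreported. Of 14 marker lists of other cell types only levels that touch a result are printed: 1 gene rose in each of the mast cell, neuron, macrophage, lymphocyte, fibroblast and delta cell lists, 7 fell in the beta and 3 in the acinar list, and 0 were called by edgeR in the muscle, endothelial, duct and hepatocyte lists. No platelet marker passed the filter.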

Additional observations from a re-analysis of the deposited data

Results flagged for a closer look

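Among the genes named, 4 of 76 groups of libraries, none of them of the 10 genes, had 1 library far from the rest, and chance flags about 1 in 20 groups. Aass stood at 10.3 CPM in KO replicate 1, against 5.32 to 5.72 CPM in the other KO libraries. Gch1 stood at 227 CPM in WT replicate 2, against 199 to 205 CPM in the other WT libraries. Stat3 stood at 287 CPM in WT replicate 3, against 221 to 240 CPM, and Maob at 176 CPM in the same library, against 121 to 137 CPM.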

How the results depend on the processing

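Over 26 alternatives, Igfals kept its direction and call in all, and Prlr kept its direction in all and its call in 24. Neb kept its direction in the 24 that gave a value and its call in 15, and at a mean FPKM of at least 0.5 it gave none. Of the 10 genes, 1 was called without the run term and 1 in run 1 alone, against 3 over both runs with the run term, and 2 to 3 with single libraries left out. Ivd reversed to −0.071 against f/f controls, to −0.20 in run 3 alone and to −0.036 without KO replicate 1 (−0.036 to 0.148 with single libraries left out), Cish to −0.0053 without WT replicate 4 (−0.0053 to 0.339) and Socs2 to 0.0026 without both WT replicates 2 and 5, all without a call. The count of all genes called, 2315, was 672 when run was not a term, 1538 against f/f controls, 1429 when the acinar level was a covariate, 1488 with WT replicates 2 and 5 both left out, 1519 with the acinar extremes of run 1 (WT replicate 2 and KO replicate 2) left out, 1274 on unfiltered FPKM, 756 in run 1 alone, 1021 in run 3 alone, and 1595 to 2334 with single libraries left out. Of 702 values of the 27 named list genes, 541 kept direction and call, 161 lost the call in the same direction and 0 reversed. Among these 27 genes the call was lost by 20 without the run term, 18 in run 1 alone, 13 in run 3 alone, 13 on unfiltered FPKM, 9 with the acinar covariate and 9 against f/f controls. The cause of these changes was not tested, and some of these fits also held fewer libraries. No paired analysis was possible because the labels carry no replicate numbers, and those used here follow the order of the samples and only name libraries. At these depths 1 count is 0.147 to 0.324 CPM, which limits Tph1, Tph2 and the serotonin receptors.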
